A study of Mus musculus with 4 samples.

Results

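Messenger RNA of 10 genes of MHC class I antigen presentation and the interferon response was followed in mouse hippocampus: H2-D1, H2-K1, B2m, Tap1, Tap2, Psmb8, Psmb9, Ifit1, Ifit3 and Irf7. They were picked by symbol, each by the most highly read of its RefSeq transcripts, and all 10 were among the 23466 gene symbols of the deposited table. The samples were 2 mutants (38 and 39), titled ko and carrying the condition conditional het, Atp6ap2Camk2aCre/0, and 2 controls (11 and 73) labelled wt. All were frozen hippocampus of strain C57BL/6N at P30, postnatal day 30, and total RNA depleted of ribosomal RNA was sequenced. Camk2a-Cre is a recombinase driven in forebrain excitatory neurons, so RNA of glia and vessels comes from cells outside its usual reach, and the labels do not say whether the controls carried Cre or an altered allele. The deposited values are aligned bases per transcript after scaling by library. They were divided by the 42 bases that a read contributed and are called scaled read equivalents. The comparison asked whether transcripts differ in the hippocampus when Atp6ap2, an accessory subunit of the vacuolar proton pump, is targeted.

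MHC class I molecules carry peptides from inside the cell to its surface, where cytotoxic lymphocytes inspect them. A heavy chain such as H2-D1 or H2-K1 pairs with beta-2 microglobulin (B2m), the peptides are cut by proteasomes that can exchange their catalytic subunits for Psmb8 and Psmb9, and the transporter formed by Tap1 and Tap2 moves them into the endoplasmic reticulum. Interferons raise all of these genes and a broader antiviral set that includes Ifit1, Ifit3 and the transcription factor gene Irf7. In the resting brain the pathway is low and is found mostly in microglia and endothelium, although neurons also make class I heavy chains.

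Upstream sequences of H2-D1, H2-K1, B2m, Ifit1 and Ifit3 held matches to elements through which interferon or NF-kappaB signals are read. They are shown because they group these genes by control element and show how alike H2-D1 and H2-K1 are. Stretches come from the RefSeq promoter table of build GRCm38.p6, which holds windows of 300 bases (250 before and 50 after the start site) for 9 of the 10 genes, Tap2 not among them; for H2-K1, which has more than a single entry, the first by position was used. They are written 5′ to 3′ on the strand of the gene, with capitals for matches to an interferon-stimulated response element (the ISRE core, or a form shorter by 1 base, GAANNGAAA) or to the consensus kappaB decamer, on either strand.
H2-D1, chr17:35262908-35262967, plus strand: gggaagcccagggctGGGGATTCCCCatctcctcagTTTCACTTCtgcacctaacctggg
H2-K1, chr17:34000414-34000473, minus strand: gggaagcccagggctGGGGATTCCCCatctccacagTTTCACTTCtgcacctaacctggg
B2m, chr2:122147533-122147585, plus strand: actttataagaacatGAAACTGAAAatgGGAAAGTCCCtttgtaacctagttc
Ifit1, chr19:34640770-34640828, plus strand: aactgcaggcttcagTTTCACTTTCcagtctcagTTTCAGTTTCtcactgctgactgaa
Ifit3, chr19:34583358-34583431, plus strand: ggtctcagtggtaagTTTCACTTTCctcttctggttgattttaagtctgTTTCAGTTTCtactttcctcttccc

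The H2-D1 and H2-K1 stretches were identical at 59 of 60 positions, with a kappaB match followed by the shorter ISRE form. In B2m the order was the reverse, the ISRE first and the kappaB match after it. Ifit1 and Ifit3 each held a pair of ISRE matches and no kappaB match. Over all genes with a promoter in the table, 3.99% held the ISRE core (3 of the 9 genes here), 8.68% held GAANNGAAA (2 of 9) and 9.55% held the kappaB decamer (3 of 9). The STAT-binding GAS form, TTCNNNGAA, was in the Psmb8 window and in 9.55% of genes. The Irf7 window held none of these letters, which says nothing about the factors that act on it.

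Tap1 and Psmb9 lie back to back and are read in opposite directions. The whole stretch between their start sites is shown, on the strand of Tap1, with the only match to a GC box (GGGCGG on either strand, in 38.2% of genes) in capitals.
Tap1 and Psmb9, chr17:34187331-34187555: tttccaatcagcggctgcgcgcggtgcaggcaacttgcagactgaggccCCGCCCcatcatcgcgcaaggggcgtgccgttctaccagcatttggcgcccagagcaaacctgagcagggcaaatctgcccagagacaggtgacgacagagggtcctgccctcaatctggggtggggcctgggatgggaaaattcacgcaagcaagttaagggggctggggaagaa
These 225 bases serve as upstream sequence of both genes, and their levels in the 4 libraries are compared further on.

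None of the 10 genes passed the test between mutant and wild-type. The test was limma on log2(scaled read equivalents + 1), with Benjamini-Hochberg adjustment over 18127 genes at 0.05. In that fit 0.00552% of all genes passed, which was a lone gene, the endothelial early response gene Apold1, and 3.94% had an unadjusted p below 0.05, against 0 of these 10. The smallest unadjusted p among the 10 was 0.318, for B2m. Their median log2 fold change was -0.03, beside 0.01 over all genes tested, with 5 above and 5 below 0. Both mutants lay above both wild-types for 2 of the 10 (H2-D1 and B2m) and below them for 0, where 16.8% of all genes tested lay above and 16.5% below (33.3% without overlap). With 2 libraries a group, an exact permutation test of a single gene cannot give a two-sided p under 0.333. The labels do not say that the samples came from separate animals, so a p-value here reflects no more than how the 4 samples spread.

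**Figure D1:**
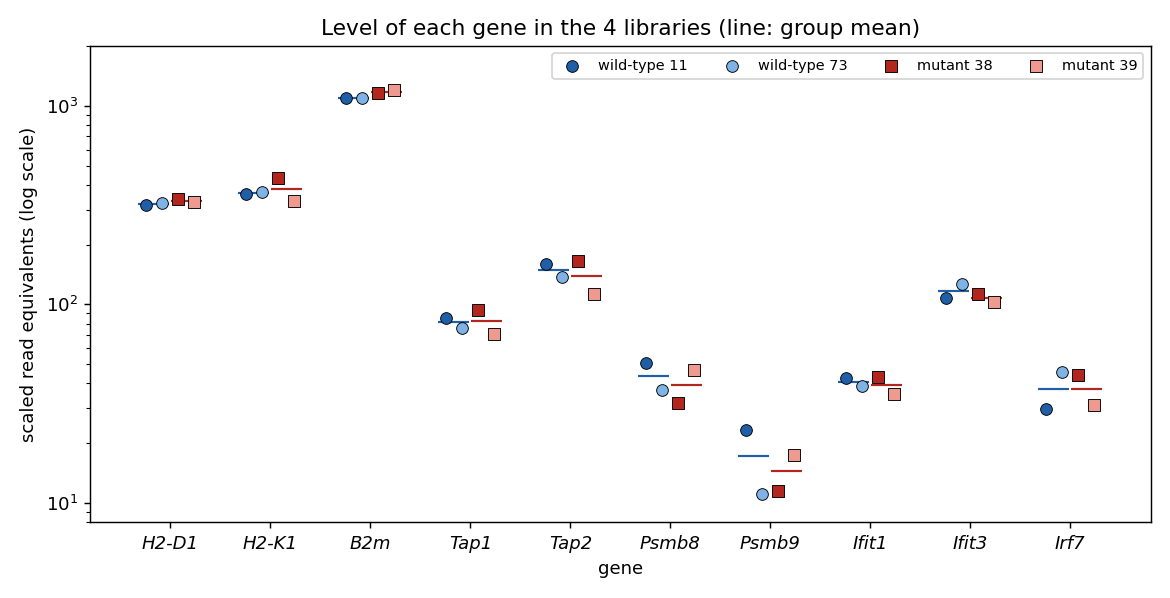
Scaled read equivalents (log axis) of the 10 genes in wild-types 11 and 73 (circles) and mutants 38 and 39 (squares), with a line at each group's mean. B2m lies between 1091 and 1198 in all libraries, and the groups overlap for every gene but H2-D1 and B2m.

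Facts of the whole libraries bear on these values. Depth over genes ran from 10023033 read equivalents in wild-type 73 to 18339838 in wild-type 11. The targeted gene, Atp6ap2, was read at 2312 in wild-type 11, 2637 in wild-type 73, 2551 in mutant 38 and 2522 in mutant 39 (log2 fold change 0.04 ± 0.10 SE, limma adjusted p = 0.991), so its level did not tell the groups apart. All 15 choroid plexus markers were higher in wild-type 11 and mutant 38 (summed levels of 49758 and 83278) than in wild-type 73 and mutant 39 (3756 and 2896), which splits each group. In whole tissue, fewer cells of a type and less RNA per cell cannot be told apart.

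Of the 2 heavy chain genes H2-D1 varied little between libraries and H2-K1 more. H2-D1 was read at 315 and 325 (scaled read equivalents) in the wild-types 11 and 73, and at 339 and 327 in the mutants 38 and 39. The mutants lay above the wild-types, but mutant 39 exceeded wild-type 73 by less than the spread within either group. This is a log2 fold change of 0.06 ± 0.13 (SE over 2 against 2 libraries; 95% interval from -0.25 to 0.37; adjusted p = 0.989 in limma). H2-K1 had 361 and 366 in the wild-types (11, 73) and 431 and 331 in the mutants (38, 39). Mutant 38 was the highest library and mutant 39 the lowest, on either side of wild-types that lay close together. The log2 fold change was 0.05 ± 0.16 (95% interval -0.33 to 0.43; limma adjusted p = 0.992), and it ran from -0.14 without mutant 38 to 0.24 without mutant 39.

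Reads of the heavy chains are not fully their own. Of the 42-base windows in the H2-D1 transcript, 19.3% occurred in the GENCODE M21 transcripts of other genes, H2-Q1 (8.54%) and H2-K1 (8.10%) foremost. For H2-K1 the share was 13.8%, with H2-D1 first (10.6%). How the authors assigned such reads is not given in the sources used here, so the split between heavy chains is uncertain to that extent.

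B2m, the light chain that all class I heavy chains need, was the most abundant of the 10. It had 1091 and 1097 in the wild-types (11, 73) and 1155 and 1198 in the mutants (38, 39). The wild-types differed by under 10 read equivalents, and both mutants were higher. The log2 fold change was 0.10 ± 0.10 (SE; 95% interval -0.13 to 0.33; limma adjusted p = 0.989), an interval from 0.917-fold to 1.26-fold. No 42-base window of B2m occurred in another gene.

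The transporter genes varied more within the groups than between them. Tap1 had 85.8 and 76.4 in the wild-types (11, 73) and 93.5 and 71.3 in the mutants (38, 39). Tap2 had 160 and 137 in the same wild-types and 165 and 112 in the same mutants. In both genes mutant 38 was highest, mutant 39 lowest, and wild-type 11 above wild-type 73. The log2 fold changes were 0.01 ± 0.24 for Tap1 and -0.12 ± 0.24 for Tap2 (SE, n = 2 per group; limma adjusted p = 0.997 and 0.989). Leaving out mutant 38 gave -0.18 and -0.40, and leaving out mutant 39 gave 0.21 and 0.15.

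The subunits that interferon brings into the proteasome were the least certain of the class I set. Psmb8 had 50.7 and 36.9 in the wild-types (11, 73) and 32.02 and 46.8 in the mutants (38, 39). Psmb9, its neighbour in the same gene cluster, had 23.3 and 11.1 in the wild-types (11, 73) and 11.5 and 17.5 in the mutants (38, 39). In both genes wild-type 11 and mutant 39 were high and the other two libraries low, so the groups overlapped. The log2 fold change was -0.16 ± 0.33 for Psmb8 and -0.17 ± 0.49 for Psmb9 (SE, n = 2 per group; limma adjusted p = 0.989 and 0.991). The 95% interval for Psmb9, 0.399-fold to 1.97-fold, was the widest of the 10.

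Psmb9 rested on few reads. Before scaling it had 28 in wild-type 11 and 7 in wild-type 73, 14 in mutant 38 and 19 in mutant 39. After scaling, the exact 95% Poisson intervals of the 2 wild-types were 15.5 to 33.8 and 4.39 to 22.5, which overlap. These intervals cover counting error only. For 8 of the 10 genes the intervals of all 4 libraries had a range in common, which does not show that the libraries were alike. The exceptions were H2-K1 and Tap2, in which the interval of mutant 38 lay above that of mutant 39. In Tap2 the interval of wild-type 11 also lay above that of mutant 39.

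Although Tap1 and Psmb9 share their upstream sequence, their libraries did not rank alike. Tap1 was highest in mutant 38 and lowest in mutant 39, whereas Psmb9 was highest in wild-type 11 and lowest in wild-type 73. With so few Psmb9 reads this order is a description only.

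Psmb8, Psmb9 and Psmb10 replace the constitutive subunits Psmb5, Psmb6 and Psmb7 in the immunoproteasome, and their levels per transcript length can be set against these. Psmb8 stood at 12.99% and 8.76% of Psmb5 in the wild-types (11, 73) and at 7.75% and 10.7% in the mutants (38, 39). Psmb9 stood between 0.655% (wild-type 73) and 1.48% (wild-type 11) of Psmb6, with both mutants inside that range. Psmb10 stood at 14.7% and 19.6% of Psmb7 in the wild-types (11, 73) and at 15.4% and 16.5% in the mutants (38, 39). For each subunit the groups overlapped, and the constitutive subunits prevailed in every library.

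The interferon response genes Ifit1 and Ifit3, which encode antiviral RNA-binding proteins, also overlapped between groups. Ifit1 had 42.7 and 39 in the wild-types (11, 73) and 43.0 and 35.5 in the mutants (38, 39). Ifit3 had 108 and 126 in the wild-types (11, 73) and 112 and 102 in the mutants (38, 39). The log2 fold changes were -0.06 ± 0.29 and -0.13 ± 0.20 (SE, n = 2 per group; limma adjusted p = 0.994 and 0.989). Of the 42-base windows in Ifit3, 55.0% also occurred in its close copy Ifit3b, so its value cannot be assigned to Ifit3 alone. For Ifit1 the share was 8.15%, mostly with Ifit1bl2.

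Irf7, which amplifies the interferon response and is itself raised by it, had 29.8 and 45.6 in the wild-types (11, 73) and 44.0 and 31.1 in the mutants (38, 39). Wild-type 73 and mutant 38 were high and the other two libraries low, the reverse of Psmb8 and Psmb9. The group means were 37.7 ± 11.2 and 37.5 ± 9.13 (SD, n = 2 each), and the log2 fold change was 0.00 ± 0.35 (SE; 95% interval -0.83 to 0.84; limma adjusted p = 0.999). The 3 Irf7 transcripts in the authors' deposited table had p-values of 0.999, 0.977 and 0.972. Over the 13 rows of the 10 genes in the authors' deposited table, the smallest p was 0.481, for B2m.

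**Figure D2:**
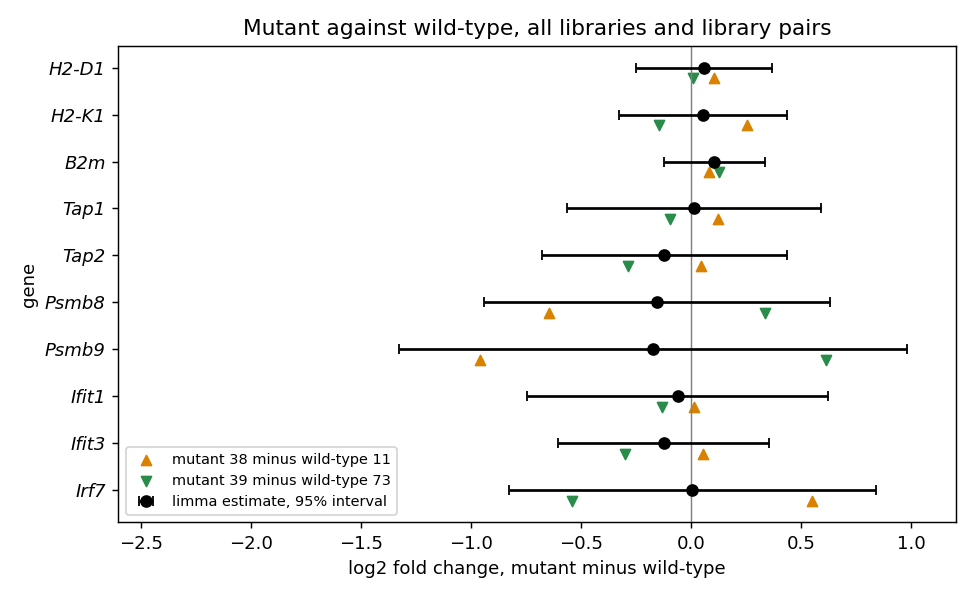
Log2 fold change of mutant against wild-type for each gene: black points with bars are the limma estimate and its 95% interval over 4 libraries, and triangles are differences between 2 libraries, of the pair rich in choroid plexus markers (mutant 38 minus wild-type 11) and the pair poor in them (mutant 39 minus wild-type 73). Every interval spans 0, and for 8 of the genes the pairs fall on opposite sides of 0.

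Within the pair rich in choroid plexus markers (wild-type 11 and mutant 38) the median log2 difference of the 10 genes was 0.07, and within the poor pair (wild-type 73 with mutant 39) the median was -0.12. Psmb9 had -0.96 in the first pair and 0.61 in the second, Psmb8 -0.65 and 0.34, and Irf7 0.55 and -0.54. H2-D1 (0.10 and 0.01) and B2m (0.08 and 0.13) were above 0 in both. Tap1, Tap2 and Ifit1 were higher in both marker-rich libraries than in both marker-poor ones, which was so for 20.6% of all genes tested, and the part of choroid plexus tissue in their levels was not tested.

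**Figure D3:**
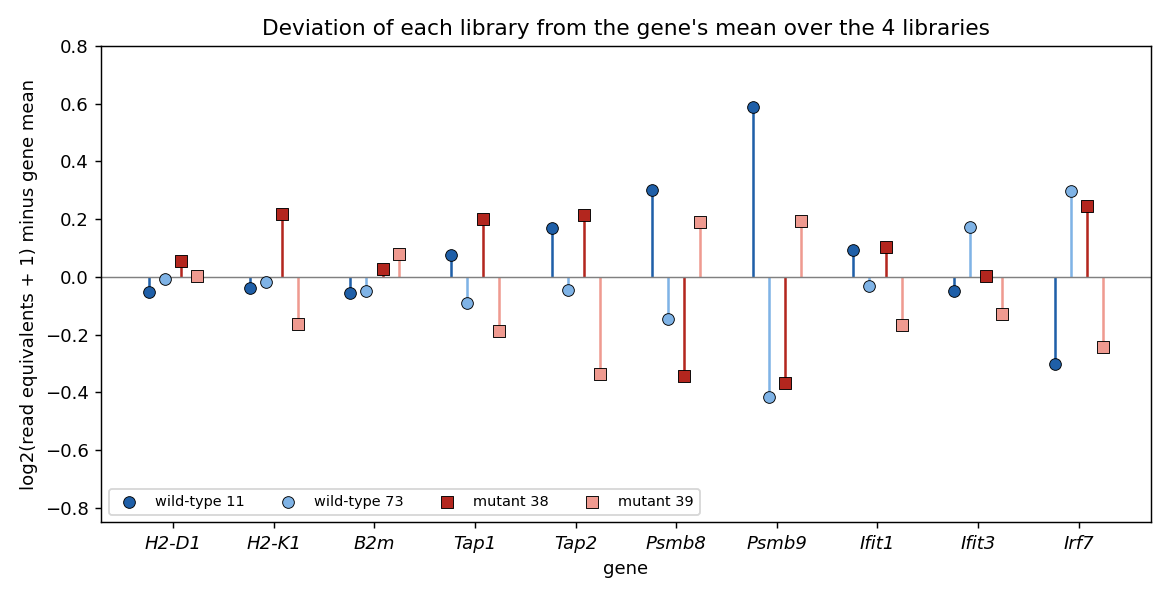
Deviation of each library from a gene's own mean over the 4 libraries, in log2(scaled read equivalents + 1). Mutant 38 is highest for 5 genes (H2-D1, H2-K1, Tap1, Tap2 and Ifit1) and mutant 39 lowest for 5 (H2-K1, Tap1, Tap2, Ifit1 and Ifit3).

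The mutants lay on either side of both wild-types for 4 of the 10 genes (H2-K1, Tap1, Tap2 and Ifit1), beside 14.1% of all genes tested. The wild-types lay on either side of both mutants for 2 (Psmb9 and Irf7), beside 18.2%. Mutant 38 exceeded mutant 39 in 7 of the 10 genes, by a median log2 difference of 0.20, beside 0.00 over all genes tested. Wild-type 11 exceeded wild-type 73 in 5 of the 10, by a median of 0.06. The coefficient of variation over the 4 libraries ran from 2.98% for H2-D1 and 4.48% for B2m to 22.2% for Irf7 and 36.4% for Psmb9.

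Per transcript length the genes fell in a clear order at the top. B2m had 1320 ± 59.1 scaled read equivalents per kilobase (SD over 4 libraries), H2-K1 230 ± 26.0, H2-D1 155 ± 4.63, Ifit3 64.3 ± 5.87 and Tap2 41.7 ± 6.96. The libraries of these neighbours did not overlap. Tap1 (27.7 ± 3.35), Psmb8 (25.6 ± 5.31), Irf7 (19.6 ± 4.36), Ifit1 (15.1 ± 1.34) and Psmb9 (11.7 ± 4.26) followed, each overlapping with the next. The levels of Ifit3 and of both heavy chains may include reads of their copies.

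Genes with a library profile nearest to the mean profile of H2-D1, H2-K1 and B2m were sought among 13029 genes with at least 50 scaled read equivalents. By Euclidean distance of centred log2 values over 4 libraries, the nearest was Mfap1a (0.00438), and near it were Lamp1 (0.00984), Zfp451 (0.0105) and Zfp629 (0.0140). Of the genes that made the profile, H2-D1 stood at 0.0578 and rank 130, B2m at 0.131 and rank 1218, and H2-K1 at 0.181 and rank 2948. With 4 libraries and small deviations such likeness is common, and it is given as a description.

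The wider pathway was read from lists of related genes, none of which had a member that passed with all 4 libraries. The other interferon-stimulated genes numbered 54 tested, with a median log2 fold change of -0.14. Both mutants were below both wild-types in 18 of them and above in 5, beside 16.5% and 16.8% of all genes tested. An unadjusted limma p below 0.05 was reached by 4 in the lower direction (1.75% of all genes) and 1 in the higher (2.18%). The median was 0.09 without mutant 39 and -0.32 without mutant 38. Between library pairs it was -0.12 for mutant 38 minus wild-type 11 and -0.31 for mutant 39 minus wild-type 73. Of the 54 genes, 31.5% were higher in both libraries rich in choroid plexus markers than in both poor ones and 5.56% lower, beside 20.6% and 19.99% of all genes tested. Mutant 39 is a marker-poor library. With the choroid plexus covariate in the fit the median of the list was -0.15, with 39 of the 54 genes below 0, beside 38 without it. Each group holds a marker-rich and a marker-poor library, so the covariate could hardly move this median either way. The part of choroid plexus tissue in this list was not tested.

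The 4 lower genes were picked by their unadjusted limma p below 0.05, so lower values in both mutants go with the choice. Irgm2, an interferon-inducible GTPase, had 62.5 and 63.9 in the wild-types (11, 73) and 32.6 and 32.4 in the mutants (38, 39) (log2 fold change -0.94 ± 0.27 SE, n = 2 per group; limma adjusted p = 0.989). Iigp1, a GTPase of the same family, had 37.3 and 51.4 in wild-type and 22.9 and 22.6 in mutant (-0.92 ± 0.32). Samd9l, an interferon-induced antiviral gene, had 101 and 125 in wild-type and 70.1 and 71.3 in mutant (-0.66 ± 0.22). Oas1a, an oligoadenylate synthetase, had under 10 in every library. On the other side Ifih1, the double-stranded RNA sensor, had 95.6 and 90.3 in wild-type and 150 and 119 in mutant (0.52 ± 0.21). None of these 5 passed over all genes.

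**Figure D4:**
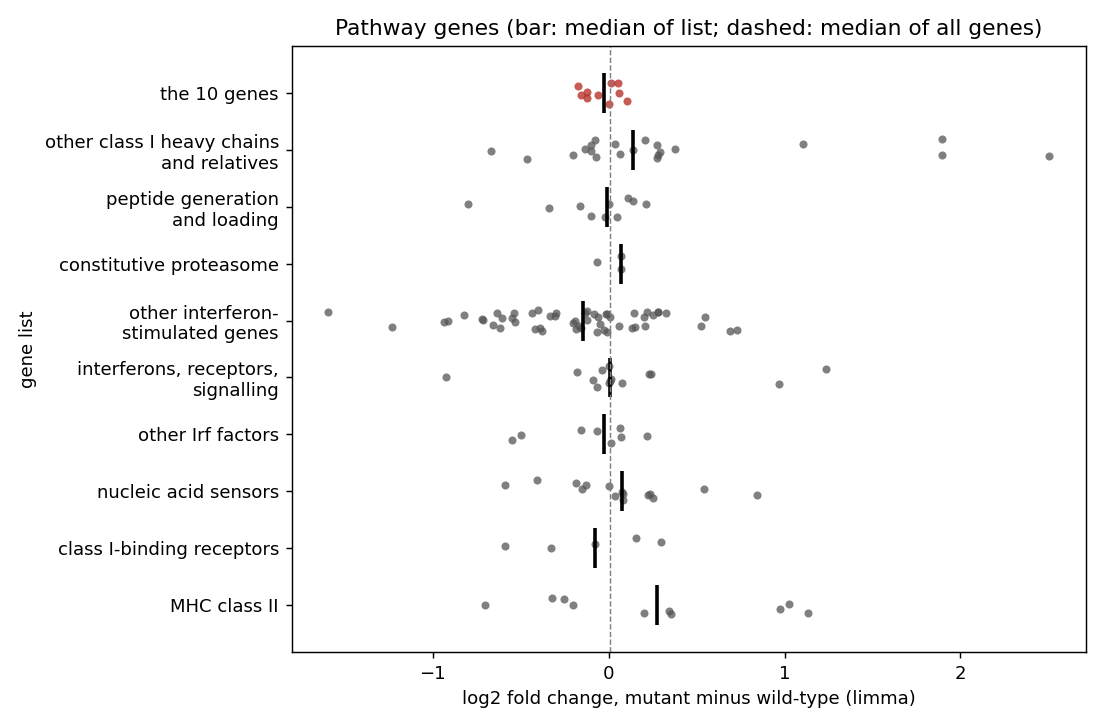
Log2 fold change (limma, mutant minus wild-type) of every tested gene of the lists, a point per gene, with a bar at each list's median and a dashed line at the median of all genes. The 10 genes lie between -0.17 and 0.10, and the other interferon-stimulated genes between -1.60 and 0.73.

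Interferon ligands were barely read. Ifnb1, Ifna1, Ifna2 and Ifna4 were listed at 0 in all 4 libraries. Of 14 genes of the receptor and signalling list that could be tested, 7 were above and 7 below 0, with a median of 0.00. Socs3, a feedback inhibitor of cytokine receptors, had 30.1 and 22.3 in the wild-types (11, 73) and 65.6 and 40.6 in the mutants (38, 39) (log2 fold change 0.97 ± 0.36 SE; limma adjusted p = 0.989), and its log2 fold change was 0.63 without mutant 38. Socs1, another such inhibitor, had 17.5 and 12.1 in wild-type and 7.60 and 6.82 in mutant (-0.92 ± 0.44). Ifnlr1, the lambda interferon receptor, had 35.8 and 7.99 in wild-type and 36.7 and 47.8 in mutant, and its log2 fold change of 1.24 ± 0.64 was 0.22 without wild-type 73.

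Among 8 interferon regulatory factors other than Irf7 the median was -0.03. Irf9, the DNA-binding part of the complex that type I interferon activates, had 176 and 137 in the wild-types (11, 73) and 116 and 103 in the mutants (38, 39) (-0.50 ± 0.21). Without wild-type 11 its log2 fold change was -0.32. Irf1, which binds the same elements, had 144 and 94.2 in wild-type and 79.5 and 79.1 in mutant (-0.55 ± 0.26). For Irf1 it was -0.25 without wild-type 11 and -0.85 without wild-type 73. Both mutants were below both wild-types in 2 of the 8, Irf9 and Irf1, and above in 1, beside 16.5% and 16.8% of all genes tested. Irf9 and Irf1 were named for their small p, and neither passed (limma adjusted p = 0.989 for each).

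Of 15 nucleic acid sensors and adaptors, 1 was higher and 1 lower at an unadjusted limma p below 0.05, and 0 passed. Over all genes tested these shares were 2.18% higher and 1.75% lower. Tlr7, the endosomal sensor of single-stranded RNA, had 50.02 and 73.4 in the wild-types (11, 73) and 103 and 117 in the mutants (38, 39) (log2 fold change 0.84 ± 0.26 SE; limma adjusted p = 0.989). Trex1, the exonuclease that clears cytosolic DNA, had 166 and 228 in wild-type and 145 and 114 in mutant (-0.59 ± 0.23). Its log2 fold change was -0.36 without wild-type 73 and -0.82 without wild-type 11.

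The genes of peptide generation and loading outside the 10 had a median of -0.01, with 5 above and 5 below 0. Psme1, a subunit of the proteasome activator, had 275 and 320 in the wild-types (11, 73) and 268 and 262 in the mutants (38, 39). Erap1, which trims peptides, had 223 and 225 in wild-type and 252 and 240 in mutant. Nlrc5, the transactivator of class I genes, had 23.98 and 25.6 in wild-type and 15.8 and 12.1 in mutant (-0.80 ± 0.37; limma adjusted p = 0.989).

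The MHC class II genes, which present peptides from outside the cell, had a median of 0.27 over 10 genes, with 6 above and 4 below 0, and the median was -0.14 without mutant 38. With the filter of at least 10 read equivalents in 2 libraries, 7 were tested, with a median of -0.20, 3 above and 4 below 0. Both mutants were above both wild-types in 3 of the 10 and below in 2, beside 16.8% and 16.5% of all genes tested. Ciita, the transactivator of class II genes, had 52.3 and 39.5 in wild-type and 27.3 and 27.8 in mutant (-0.70 ± 0.31). Cd74, the invariant chain of class II molecules, had 46.2 and 33.6 in wild-type and 61.3 and 42.1 in mutant (0.36 ± 0.32).

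The other class I heavy chains and relatives had a median of 0.14 over 21 genes tested, which was 0.27 without wild-type 11, 0.09 without wild-type 73 and 0.32 without mutant 39. H2-T23, which encodes the non-classical molecule Qa-1, had 65.9 and 65.7 in the wild-types (11, 73) and 87.1 and 84.1 in the mutants (38, 39) (log2 fold change 0.37 ± 0.22 SE; limma adjusted p = 0.989). H2-Q5 had 47.3 in wild-type 11, 49.5 in mutant 38 and 78.0 in mutant 39, but 1.56 in wild-type 73, which is the value of a lone read there. H2-Q7 and H2-Q9, which had the same values as each other, likewise had 30.2, 26.0 and 39.8 in those libraries and 1.56 in wild-type 73. The log2 fold changes, 2.51 ± 1.19 for H2-Q5 and 1.89 ± 1.05 for H2-Q7 and H2-Q9, were 0.39 and 0.09 without wild-type 73. H2-Q5 passed only without wild-type 11, where wild-type 73 was the lone control (4.62, limma adjusted p = 0.0209).

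Cells that could carry this signal were read from their markers. Summed over 15 microglia markers the level was 8265 and 8070 scaled read equivalents in the wild-types (11, 73) and 8354 and 8573 in the mutants (38, 39). Both mutants were above both wild-types in 6 of the 15 and below in 1, beside 16.8% and 16.5% of all genes tested. In all, 12 of the 15 were above 0 (median 0.08). At an unadjusted limma p below 0.05, 1 was higher, beside 2.18% of all genes tested. The sum over 10 endothelial markers ran from 3480 in wild-type 73 to 3935 in mutant 38. The 8 markers of monocytes, neutrophils and border macrophages had sums of 290 and 248 in the wild-types (11, 73) and 362 and 243 in the mutants (38, 39), with a median of 0.19. Lymphocyte markers summed to between 13.2 and 26.4 over 10 genes. Cd4 had 8.39 and 18.7 in the wild-types (11, 73) and 8.58 and 3.61 in the mutants (38, 39). It made up most of the sum in wild-type 73 and in mutant 38, whereas in mutant 39 Cd79a was higher than Cd4, at 7.22. The T cell gene Cd3e was under 2 in every library.

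Other contents of the tissue were read from their markers too. All 7 red blood cell markers were above 0, with a median of 0.47. Both mutants lay above both wild-types in 5, beside 16.8% of all genes tested. At an unadjusted limma p below 0.05, 3 were higher, beside 2.18% of all genes tested. Hba-a1 and Hba-a2 each had 2027 in wild-type 11 and nearly equal values in the other libraries, so they are not separate evidence. The 7 markers summed to 8616 and 5936 in the wild-types (11, 73) and 9120 and 10826 in the mutants (38, 39). Of 7 meningeal fibroblast markers 5 were below 0 (median -0.14). Both mutants were lower in 1, Dcn, beside 16.5% of all genes tested, and the groups overlapped in 6. In both libraries rich in choroid plexus markers 5 of the 7 were higher than in both poor ones, beside 20.6% of all genes tested. Dcn, which encodes the matrix proteoglycan decorin, had 801 and 1059 in the wild-types (11, 73) and 473 and 259 in the mutants (38, 39) (log2 fold change -1.39 ± 0.28 SE, n = 2 per group; limma adjusted p = 0.641). The same Dcn transcript had a p of 3.06e-07 in the authors' deposited table, not said to be adjusted or not, beside an unadjusted limma p of 0.00159. Excitatory neuron markers summed to between 47398 and 55795. Of the 8, 2 were lower at an unadjusted limma p below 0.05, beside 1.75% of all genes tested. None of these markers passed over all genes, and the part of any of these cells in the class I and interferon gene levels was not tested.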

How the data were processed

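The authors deposited a table with 1 value per library for 31315 RefSeq transcript rows, from frozen hippocampus of 2 mutant and 2 wild-type samples at postnatal day 30. GSNAP, DESeq2 and build mm9 are named in the submitters' processing notes, with no word on how reads were counted, on strand or on the annotation. The deposited values are a signal, aligned bases per transcript divided by a factor per library: in each library 100% of values below 5000 steps were a whole number of steps of equal size (within 0.05), most often 42 steps. They are not counts, so edgeR and DESeq2, planned for counts, were left out. The authors' p-value column is named after DESeq, and the file header does not say whether it is adjusted.

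Values were divided by 42, and a gene was represented by its row with the highest mean. Genes with at least 1 scaled read equivalent in 2 libraries were tested on log2(value + 1) with limma 3.58.1 in R 4.3.3 (variance trend, group as the only term, two-sided), with plots in matplotlib 3.10.9 under Python 3.11.15. The fit was checked on simulated data. The genes named from each pathway list are among the up to 4 with the smallest p and a mean of at least 10, except Oas1a, Psmb10 and the interferon ligands. Of the cell type markers named, Cd4, Cd79a, Dcn, Hba-a1 and Hba-a2 are among those with the highest mean of their list. Oas1a, Psmb10, Cd3e, Cd4, Cd79a, Dcn, Apold1 and the interferon ligands were named after their values were seen. The 10 genes and the lists were chosen with earlier results of these data known. Lengths and 42-base windows came from GENCODE M21 transcripts matched by RefSeq accession, read on the transcript strand, and promoters and motifs from RefSeq, both of a later build than the authors'. A gene near in library profile is not reported here. Alternatives covered left-out libraries, pseudocounts of 0.5 and 10, filters, scalings, summed transcripts, variance priors, values in bases and a choroid plexus covariate.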

Additional observations from a re-analysis of the deposited data

How the results depend on the processing

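None of the 10 genes passed in any of the 15 alternatives, and none had an unadjusted limma p below 0.05 in them. No paired analysis was possible because the replicate numbers 11, 73, 38 and 39 are not shared between the groups. The number of genes that passed over the whole table was 0 without a variance trend (limma, 938 at an unadjusted p below 0.05), 12 with a robust variance prior and 121 with the choroid plexus covariate, which leaves 1 residual degree of freedom, and ran from 1 without wild-type 73 to 37 without wild-type 11, with 8 without mutant 38 and 7 without mutant 39. The median over the 10 genes lay between -0.16 (mutant 38 left out) and 0.080 (mutant 39 left out). The log2 fold change of Irf7 was -0.0029 with quantile normalization and -0.00090 on summed transcripts. Leaving out a library in turn, the log2 fold change ran from -0.14 to 0.24 for H2-K1, -0.18 to 0.21 for Tap1, -0.40 to 0.15 for Tap2, -0.42 to 0.11 for Psmb8, -0.68 to 0.33 for Psmb9, -0.20 to 0.074 for Ifit1, -0.24 to -0.014 for Ifit3 and -0.30 to 0.30 for Irf7. The cause of these shifts was not tested. The sign of H2-D1, B2m and Ifit3 was the same in all 15. Oas1a gave no value with the filter of 10 read equivalents. Depth limits Psmb9 most, with 7 to 28 reads a library.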
